A study of Mus musculus with 9 samples.

Results

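The genes described here are the Ctla2 inhibitors, the cathepsins and the cystatins of cultured mouse colon carcinoma cells: Ctla2a, Ctla2b, Ctsl, Ctsb, Ctsd, Ctss, Ctsz, Ctsc, Cst3 and Cstb. They are 10 of the 16399 genes listed in the files, found by their symbols, and 9 of them reached 1 TPM (transcript abundance per length, scaled to the same total in every library) in 3 or more libraries and were tested. They were chosen by family and with earlier results of these data known, above all the high Ctla2a level of the derivatives. Both comparisons against the parental line are therefore given for them as a description, with values and counts of calls but no p-values, and only the comparison between the derivatives is given with its test.

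The study compared MC38-P, a parental line that carries GFP and firefly luciferase, with MC38-LM3a and MC38-LM3b. These are third-generation liver metastatic derivatives of that labelled line, described as independently derived. In each round of selection, cells placed in the spleen of C57BL/6 mice with an intact immune system grew in the liver, and the tumor cells recovered there were cultured for the next round. All 3 lines are C57BL/6 colon carcinoma cells labelled as epithelial, all descend from reporter-labelled cells, and each derivative is a single selected population. Whether they shared the earlier rounds of selection is not stated in so many words, and single first and second generations are named for this line. Poly(A) RNA of 3 biological replicates per line gave 9 libraries, and the p-values below measure the spread between these cultures of a line, not between independent selections.

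Cathepsins are proteases of the lysosome. Most members of the family are cysteine proteases of the papain type, made as inactive precursors whose propeptide lies across the active site until it is removed at low pH, whereas cathepsin D is an aspartic protease. Ctla2a and Ctla2b encode small proteins that resemble the propeptide of cathepsin L without the protease that follows it, and CTLA2A inhibits cathepsin L-like enzymes. They were first found in activated T cells and mast cells. Cystatins are unrelated inhibitors that block the active site of cysteine cathepsins, cystatin C (Cst3) mostly outside the cell and cystatin B (Cstb) mostly in the cytosol. In tumors, cathepsins that leave the cell can cut extracellular matrix.

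Ctla2a and Ctla2b lie next to each other on chromosome 13, in the same orientation, and Ctsl lies on the same chromosome. The 250 bases upstream of the RefSeq start of Ctla2a and Ctla2b are printed because the members that differed most between the lines are these paralogs. These bases lie before the transcript and do not bear on how reads or primers tell the paralogs apart. Sequences are from RefSeq on GRCm38.p6, minus strand, at chr13:60936626-60936875 for Ctla2a and chr13:60897448-60897697 for Ctla2b, and capitals mark the 42 bases of each that are not matched by the same base in the other.
Ctla2a: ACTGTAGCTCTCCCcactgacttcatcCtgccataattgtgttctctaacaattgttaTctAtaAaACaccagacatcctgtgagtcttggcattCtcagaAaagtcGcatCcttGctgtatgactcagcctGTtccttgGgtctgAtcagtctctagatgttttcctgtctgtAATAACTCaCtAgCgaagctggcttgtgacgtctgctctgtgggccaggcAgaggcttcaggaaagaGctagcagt
Ctla2b: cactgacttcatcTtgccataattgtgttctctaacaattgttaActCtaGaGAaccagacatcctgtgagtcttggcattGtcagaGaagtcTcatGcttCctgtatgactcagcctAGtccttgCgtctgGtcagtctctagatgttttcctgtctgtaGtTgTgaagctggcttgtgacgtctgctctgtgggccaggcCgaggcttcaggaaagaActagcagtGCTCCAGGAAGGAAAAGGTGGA

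Of the 228 aligned upstream bases, 208 were identical (91.2%). On both strands, the letters TTCNNNGAA (a gamma-activated site, the element bound by STAT factors) were found once in the Ctla2a window, as TTCTCAGAA at bases 157 to 149 before the start, and not in the Ctla2b window. The corresponding stretch of Ctla2b differs from it at the letters in capitals. This motif occurred in 7.02% of the 32851 RefSeq windows of the same length. The letters TGTGGT (the core of a Runx site, 14.1% of windows) and CACGTG (the core of the CLEAR element of lysosomal genes, 6.02% of windows) were found in neither window. A match is a description of the letters and not a site shown to be used.

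The transcripts of the paralogs are also alike. The GENCODE transcripts Ctla2a-201 (1373 bases) and Ctla2b-201 (842 bases) were identical at 88.8% of 839 aligned bases. Of the windows of 50 bases in Ctla2a-201, 7.1% occurred without a mismatch in a Ctla2b transcript, and of its windows of 100 bases 0% did. For Ctla2b-202, the corresponding shares were 15.7% and 2.81%. How the authors assigned reads that fit both genes is not given in the sources used here, so their levels and their sum are uncertain to that extent. The study's PCR primers for Ctla2a are printed because they bear on the same point. Capitals mark the base that differs in the nearest stretch of a coding Ctla2b transcript.
Ctla2a-F: ctccaCcccctgatccaagt
Ctla2a-R: acaCgagtcttctgtgtctttct

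Each primer matched the coding Ctla2a transcript exactly and neither of the 2 coding Ctla2b transcripts exactly. The closest stretch of Ctla2b had 1 mismatch, at position 6 of the forward and position 4 of the reverse primer, counted from the 5′ end. Whether the primers also amplify Ctla2b was not tested here.

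Ctla2a was barely present in MC38-P and clearly present in both derivatives. Its level was 0.96, 0.55 and 1.08 TPM in the MC38-P replicates, 17.77, 15.35 and 13.46 TPM in MC38-LM3a, and 21.72, 20.59 and 22.03 TPM in MC38-LM3b. Every derivative library lay above every parental library, and every MC38-LM3b library lay above every MC38-LM3a library. The mean level was 0.863 ± 0.278 TPM (SD, n = 3) for MC38-P, 15.5 ± 2.16 TPM for MC38-LM3a and 21.4 ± 0.758 TPM for MC38-LM3b, and the ratio of the means to MC38-P was 18.0 and 24.8. On the log2(TPM + 1) scale, which understates the change of genes with low values, the difference from MC38-P was 3.15 (SE 0.140) for MC38-LM3a and 3.60 (SE 0.140) for MC38-LM3b. These differences ranked 7 and 6 from the top among the 11287 tested genes, which is the property the gene was chosen for. It passed the filter on low values only through the derivatives, as 1 of 3 MC38-P libraries reached 1 TPM.

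Ctla2b followed the same order at a lower amplitude. Its level was 1.45, 1.69 and 1.63 TPM in MC38-P, 10.42, 8.2 and 6.3 TPM in MC38-LM3a, and 9.49, 10.22 and 9.1 TPM in MC38-LM3b. All derivative libraries exceeded all parental libraries, while the 2 derivatives overlapped, since MC38-LM3a replicate 1 was the highest of all. The log2 difference from MC38-P was 1.82 (SE 0.153) for MC38-LM3a and 2.03 (SE 0.153) for MC38-LM3b, ranks 36 and 39 among the tested genes. The spread was widest in MC38-LM3a for this gene, with a mean of 8.31 ± 2.06 TPM against 9.60 ± 0.569 TPM in MC38-LM3b and 1.59 ± 0.125 TPM in MC38-P.

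The paralogs changed rank between the lines. TPM is scaled by transcript length, so levels of different genes can be set side by side on it. Ctla2b was the higher of the pair in all MC38-P libraries, and Ctla2a in all derivative libraries. In MC38-P both genes were near 1 TPM, and the rank and the shares also depend on how shared reads were divided. Ctla2a made up 34.7% ± 8.83 (SD, n = 3) of the summed level of both genes for MC38-P, 65.4% ± 2.55 for MC38-LM3a and 69.1% ± 2.02 for MC38-LM3b. The summed level, which still depends in part on how shared reads were divided because the transcripts differ in length, was 2.45 ± 0.238 TPM for MC38-P, 23.8 ± 4.22 TPM for MC38-LM3a and 31.1 ± 0.212 TPM for MC38-LM3b.

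**Figure D1:**
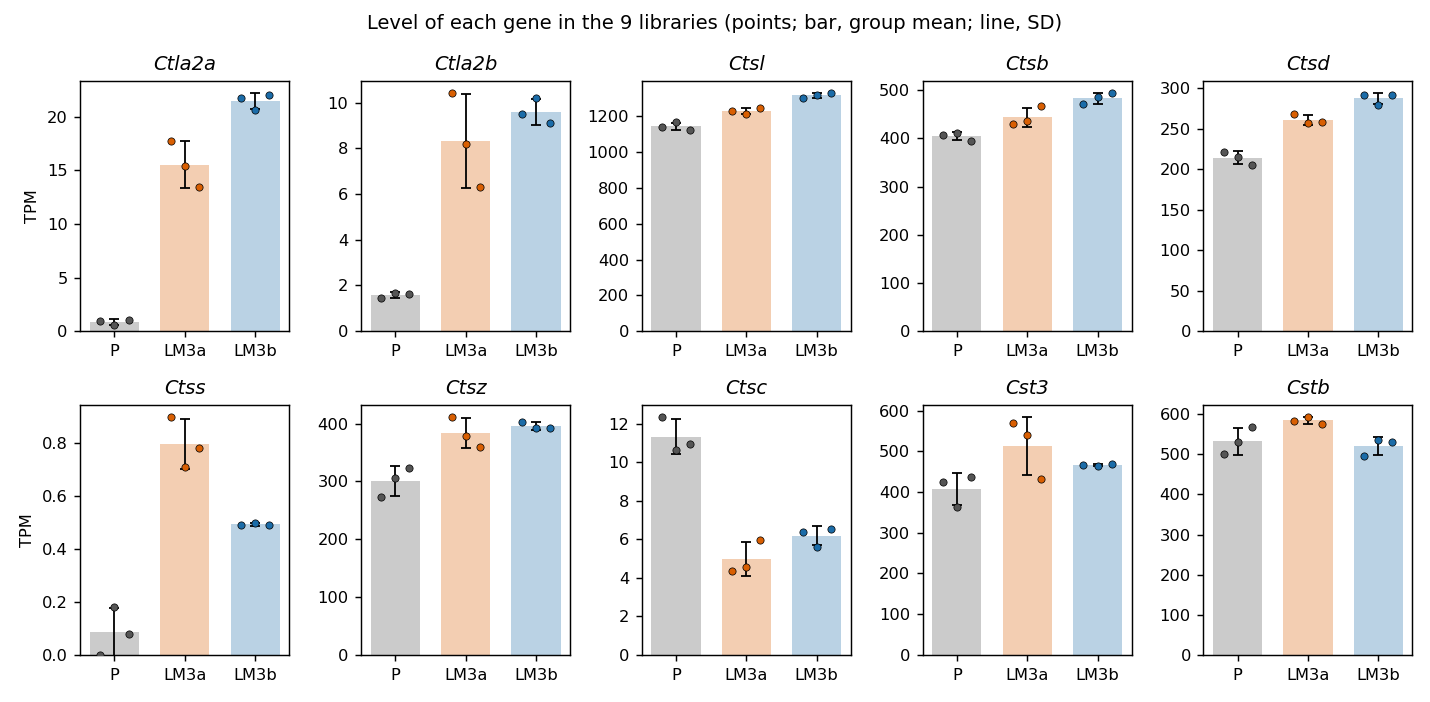
Level of each of the 10 genes in TPM (y axis, each panel on its own linear scale from 0) in the 3 lines, with 1 point per library, bars for the mean and lines for the SD of 3 replicates. Ctla2a and Ctla2b are near 1 TPM in MC38-P and several times higher in the derivatives, Ctsc is lower there, and the abundant cathepsins and cystatins stay above 200 TPM in all lines.

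Ctsl, Ctsb, Ctsd and Ctsz, by contrast, were abundant in all 3 lines and differed by at most 0.42 on the log2 scale from MC38-P, while Ctsc and Ctss were low. Cathepsin L (Ctsl), a major endopeptidase of the lysosome, had the highest level of the 10 genes in every line. It was at 1138.96, 1166.66 and 1125.63 TPM in MC38-P, 1229.77, 1215.69 and 1246.43 TPM in MC38-LM3a, and 1305.19, 1317.78 and 1331.14 TPM in MC38-LM3b. The libraries of the 3 lines did not overlap, but the steps were small, with a log2 difference from MC38-P of 0.11 (SE 0.0446) for MC38-LM3a and 0.20 (SE 0.0446) for MC38-LM3b. The summed Ctla2 level per 100 TPM of Ctsl was 0.215 ± 0.0245 for MC38-P, 1.94 ± 0.354 for MC38-LM3a and 2.36 ± 0.0305 for MC38-LM3b, so the inhibitor transcripts remained a small part beside those of the protease.

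The scale of these steps has to be read against all genes. The median log2 difference over the 11287 tested genes against MC38-P was 0.00 for MC38-LM3a but 0.21 for MC38-LM3b. Ctsl therefore lay at the 64.7 percentile of the differences for MC38-LM3a and at the 49.4 percentile for MC38-LM3b, where its difference equalled that of a typical gene. After each library was centred on its median, the Ctsl difference between MC38-LM3b and MC38-P was -0.019, whereas quantile normalization, which also brings the median of all genes near 0, left it at 0.23.

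Ctsb, cathepsin B, which acts both as an endopeptidase and as a carboxypeptidase, showed the same course as Ctsl. Its level was 407.68, 412.15 and 395.5 TPM in MC38-P, 430.1, 435.55 and 466.98 TPM in MC38-LM3a, and 471.78, 485.04 and 493.56 TPM in MC38-LM3b, with no overlap between lines. The log2 difference from MC38-P was 0.13 (SE 0.0527) and 0.25 (SE 0.0527), at the 67.9 and 55.0 percentiles of all tested genes. The centred profiles of Ctsl and Ctsb over the 9 libraries were the most alike of any pair of tested members, with a root mean square difference of 0.0331 in log2(TPM + 1).

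Ctsz, cathepsin Z, a carboxypeptidase also called cathepsin X, was higher in both derivatives. It was at 273.33, 306.32 and 323.12 TPM in MC38-P, 411.95, 379.06 and 359.41 TPM in MC38-LM3a, and 402.84, 392.12 and 391.58 TPM in MC38-LM3b. Parental and derivative libraries were separate, and the derivatives overlapped with each other. The log2 difference from MC38-P was 0.35 (SE 0.0727) for MC38-LM3a and 0.40 (SE 0.0727) for MC38-LM3b, at the 87.7 and 71.5 percentiles.

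Ctsc, cathepsin C or dipeptidyl peptidase I, which trims and activates the granule serine proteases of leukocytes, was the member that was lower in the derivatives. Its level was 12.36, 10.64 and 10.96 TPM in MC38-P, 4.36, 4.56 and 5.98 TPM in MC38-LM3a, and 6.36, 5.62 and 6.55 TPM in MC38-LM3b. All parental libraries exceeded all derivative libraries. The log2 difference was -1.05 (SE 0.129) for MC38-LM3a and -0.78 (SE 0.129) for MC38-LM3b, at the 1.35 and 2.15 percentiles of all tested genes. Ctsc was thus above both Ctla2 genes in MC38-P and below both of them in the mean of either derivative.

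Ctss, cathepsin S, an enzyme of antigen-presenting cells, was at or near 0. It was listed at 0, 0.18 and 0.08 TPM in MC38-P, 0.9, 0.71 and 0.78 TPM in MC38-LM3a, and 0.49, 0.5 and 0.49 TPM in MC38-LM3b. The 3 lines did not overlap, but no library reached 1 TPM, so the gene was not tested, and no fold is given against a group with a library at 0.

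Ctsd, the aspartic cathepsin D, was higher in steps like Ctsl. It was at 221.45, 215.65 and 205.28 TPM in MC38-P, 268.11, 256.68 and 258.88 TPM in MC38-LM3a, and 291.38, 279.74 and 291.44 TPM in MC38-LM3b, again without overlap between lines. The log2 difference from MC38-P was 0.29 (SE 0.0537) and 0.42 (SE 0.0537), at the 83.3 and 74.2 percentiles. Summed over the 6 cathepsins, the level was 2075 ± 31.6 TPM for MC38-P, 2325 ± 28.8 TPM for MC38-LM3a and 2491 ± 20.5 TPM for MC38-LM3b, of which Ctsl made up 55.1%, 52.9% and 52.9%.

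The cystatins did not share the pattern of the Ctla2 genes. Cst3 was at 425.37, 363.07 and 436.29 TPM in MC38-P, 568.35, 538.94 and 431.69 TPM in MC38-LM3a, and 465.3, 463.21 and 467.94 TPM in MC38-LM3b. MC38-LM3a replicate 3 fell within the parental range, and the spread within MC38-P and MC38-LM3a was wide. The log2 difference from MC38-P was 0.32 (SE 0.101) for MC38-LM3a and 0.19 (SE 0.101) for MC38-LM3b, and without 1 library at a time they ran from 0.24 to 0.44 and from 0.11 (without MC38-P replicate 2) to 0.24. The former missed the threshold when any library but MC38-P replicate 3 or MC38-LM3a replicate 3 was left out, at an unmoved 0.32 for the MC38-LM3b libraries. It also missed the threshold with no filter on low values and with only the 6 libraries of the comparison, again at 0.32. The difference in MC38-LM3b passed it without MC38-LM3a replicate 3, with only the 6 libraries of the comparison and after the correction with the longest transcript.

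Cstb was at 500.98, 529.86 and 567.75 TPM in MC38-P, 583.34, 593.71 and 575.49 TPM in MC38-LM3a, and 496.05, 536.16 and 531.04 TPM in MC38-LM3b. The MC38-LM3a libraries lay above all others, while those of MC38-LM3b and MC38-P overlapped. The log2 difference from MC38-P was 0.13 (SE 0.0593) for MC38-LM3a and -0.03 (SE 0.0593) for MC38-LM3b. Together the cystatins amounted to 941 ± 57.0 TPM for MC38-P, 1097 ± 78.5 TPM for MC38-LM3a and 987 ± 21.8 TPM for MC38-LM3b.

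The order of the levels was nearly the same in all lines. In MC38-P it ran Ctsl, Cstb, Cst3, Ctsb, Ctsz, Ctsd, Ctsc, Ctla2b, Ctla2a and Ctss, and the libraries of neighbours in this order overlapped only for Cst3 and Ctsb. In MC38-LM3a the order was Ctsl, Cstb, Cst3, Ctsb, Ctsz, Ctsd, Ctla2a, Ctla2b, Ctsc and Ctss, with overlap again only between Cst3 and Ctsb. MC38-LM3b differed from MC38-LM3a only in that Ctsb stood before Cst3, without overlap between any neighbours.

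In the fit across all genes (limma, Benjamini-Hochberg adjustment), 5 of the 9 tested members were past an adjusted p of 0.05 in the higher direction in MC38-LM3a against MC38-P (Ctla2a, Ctla2b, Ctsd, Ctsz and Cst3), and Ctsc in the lower direction, where 14.1% and 13.8% of all tested genes were. With an absolute log2 difference above 1 as well, Ctla2a and Ctla2b were higher and Ctsc was lower, against 1.39% and 1.5% of all genes, although Ctsc missed the fold threshold when MC38-P replicate 1 or MC38-LM3a replicate 1 was left out (-0.99 and -0.98). In MC38-LM3b against MC38-P, 6 members were past the threshold in the higher direction (Ctla2a, Ctla2b, Ctsl, Ctsb, Ctsd and Ctsz) and Ctsc in the lower, against 35.6% and 11.2% of all genes. With the fold threshold, only Ctla2a and Ctla2b were higher and no member was lower, against 2.76% and 1.18%, although Ctsc at -0.78 passed the fold threshold under quantile normalization (-1.05), median centring (-1.003) and the correction with the longest transcript (-1.02). The libraries of the groups did not overlap for 7 tested members in the higher and 1 in the lower direction in either comparison, against 20.3% and 15.9% of all genes for MC38-LM3a and 51.3% and 15.4% for MC38-LM3b. The members were chosen on these comparisons and both share the MC38-P libraries, so nothing is read from these counts. With each library centred on its median, 3 members instead of 7 were past the adjusted p in MC38-LM3b, as Ctsl, Ctsb, Ctsd and Ctsz no longer were, and Ctsz and Cst3 were no longer called in MC38-LM3a although their differences stayed at 0.35 and 0.32. Under quantile normalization the number in MC38-LM3b was 7.

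**Figure D2:**
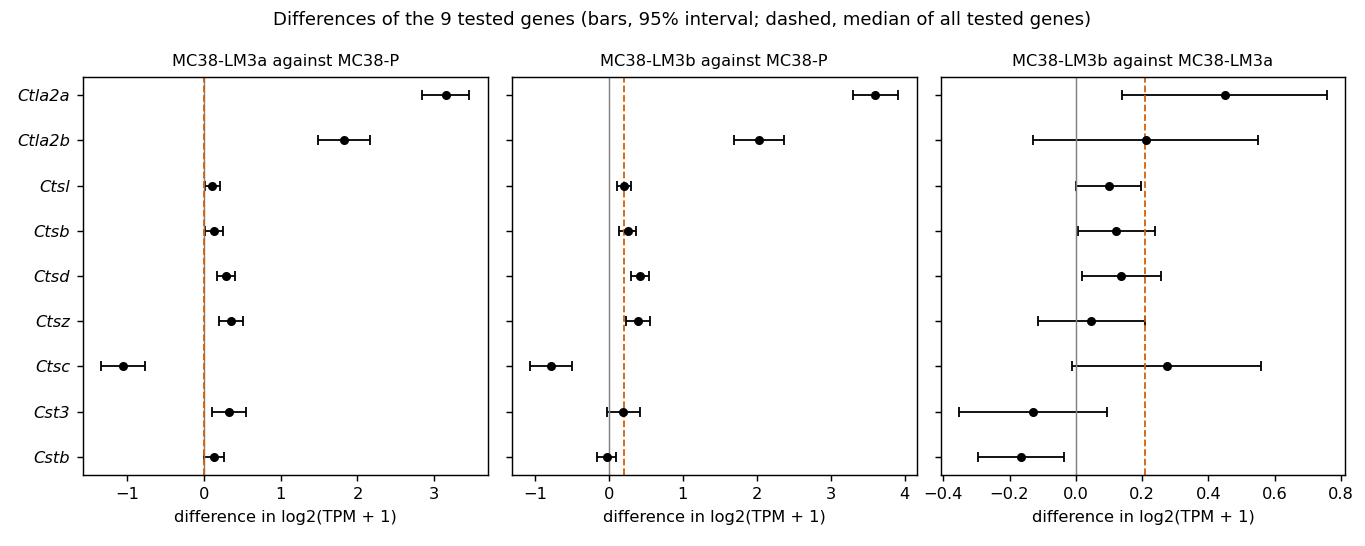
Difference in log2(TPM + 1) (x axis) of the 9 tested genes in the 3 comparisons, with 95% intervals from limma, where the dashed line is the median of all 11287 tested genes. Ctla2a and Ctla2b stand to the right and Ctsc to the left in both comparisons against MC38-P, Ctsl and Ctsb lie near the dashed line in MC38-LM3b, and the axis between the derivatives is narrower.

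Between the derivatives, which the choice of the genes did not use as far as is known, no member passed the test. Of 9 tested members, 0 had an adjusted p under 0.05 (limma), as did 0.0532% of all tested genes, and 5 had an unadjusted p under 0.05, beside 38.1% of all genes. Ctla2a was 0.45 higher in MC38-LM3b on the log2 scale (95% interval 0.14 to 0.76, adjusted p = 0.1187 by limma) and higher in 3 of 3 libraries. This difference was 0.21 under quantile normalization and 0.23 under median centring. For Ctla2b the difference was 0.21 (interval -0.13 to 0.55, limma adjusted p = 0.2897), and the median over all genes was also 0.21. It ranged from 0.05 without MC38-LM3a replicate 3 to 0.37 without MC38-LM3a replicate 1. Differences in the other members ran from -0.17 for Cstb (interval -0.30 to -0.03, limma adjusted p = 0.1187) to 0.27 for Ctsc (interval -0.01 to 0.56, limma adjusted p = 0.1391). Both values moved with the scaling. For Ctsc the difference was 0.0039 under quantile normalization, 0.052 under median centring and 0.11 under the GC and length correction. For Cstb it was -0.39 under median centring and -0.089 under the correction with the longest transcript.

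The measured differences of the protease genes between the derivatives were smaller than that of Ctla2a, but this contrast between genes was not tested. Ctsl was 0.10 higher in MC38-LM3b (95% interval 0.00 to 0.20), Ctsb 0.12 (0.01 to 0.24), Ctsd 0.14 (0.02 to 0.26) and Ctsz 0.05 (-0.11 to 0.21), with limma adjusted p-values from 0.1187 to 0.6171. The Ctsz difference was 0.0012 without MC38-LM3a replicate 3 and 0.099 without MC38-LM3a replicate 1. All 4 were below the median of all genes, and after centring on the median their differences turned negative, from -0.08 to -0.18. Under quantile normalization they stayed positive, at 0.20, 0.13, 0.10 and 0.03, where Ctla2a was at 0.21, close to Ctsl. The libraries did not overlap for 4 tested members in the higher and 1 in the lower direction, against 38.4% and 3.6% of all genes. The outcome depended on 1 library: without MC38-LM3a replicate 3, 5 members passed the threshold, but so did 56.4% of all genes. That replicate differed from its group along transcript length, with a Spearman correlation across 11096 genes of 0.359 with the median and 0.644 with the longest transcript length of a gene. The corresponding values were -0.362 and -0.62 for MC38-P replicate 3, 0.302 and 0.509 for MC38-P replicate 1, 0.239 and 0.413 for MC38-P replicate 2, -0.302 and -0.552 for MC38-LM3a replicate 1, and -0.295 and -0.513 for MC38-LM3a replicate 2, each set against the other replicates of its line. The MC38-LM3b libraries lay between -0.0227 and 0.0361. Across genes these are descriptions without a p-value, and the part of the length trend in the results was not tested.

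Other genes of the pathway were taken from lists written by family, 63 genes in all, of which 36 are listed in the files and 23 were tested. These lists, too, were chosen with earlier results of these data known. In MC38-LM3a against MC38-P, 6 of the 23 rose and 2 fell, beside 14.1% and 13.8% of all tested genes, with a median log2 difference of 0.09 beside 0.00 for all genes. In MC38-LM3b 13 rose and 2 fell, beside 35.6% and 11.2% of all tested genes, with a median of 0.31 beside 0.21. Between the derivatives 0 of the 23 passed the threshold in limma. Beside genes that passed an adjusted p of 0.05 in both comparisons against MC38-P, some that did not, or that were not tested, are named with their values. Genes that passed are named for that reason, so their p-values against MC38-P describe the fit and are not independent support.

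Among the other cathepsins, 2 of 8 genes were tested and 1 rose. Ctso, cathepsin O, a cysteine cathepsin whose substrates are little known, was at 15.03, 12.43 and 11.46 TPM in MC38-P, 27.02, 26.48 and 30.63 TPM in MC38-LM3a and 34.71, 34.03 and 32.18 TPM in MC38-LM3b. It rose by 1.06 (SE 0.109, limma adjusted p = 6.496e-05) and 1.32 (SE 0.109, limma adjusted p = 1.114e-05) on the log2 scale, values above those of every cathepsin member. Ctsa, a serine carboxypeptidase, differed by -0.06 (SE 0.0763) and 0.03 (SE 0.0763) and did not pass the test. The other 3 listed genes of this group, Ctsf, Ctsk and Ctsw, did not exceed 1.23 TPM in any library. Of the 8 placental cathepsins, which form a cluster beside the Ctla2 genes on chromosome 13, only Ctsm is listed, at no more than 0.05 TPM.

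Among the other inhibitors, 2 of 21 genes were tested, 1 of which rose and 1 fell. Csta2, a stefin A of the mouse and thus a cytosolic cystatin, was at 17.62, 16.93 and 14.89 TPM in MC38-P, 74.21, 63.63 and 53.21 TPM in MC38-LM3a and 79.06, 87.67 and 68.61 TPM in MC38-LM3b. No parental library came near a derivative one, and the log2 difference was 1.88 (SE 0.129, limma adjusted p = 4.394e-06) and 2.18 (SE 0.129, limma adjusted p = 1.094e-06). The mouse stefin A genes are near-identical copies, so that reads may be divided among them. Csta1 and Stfa1, the other listed genes of that kind, stayed at or below 1.02 TPM. Fetub, a secreted protein of the cystatin superfamily, fell by 0.61 (SE 0.0996, limma adjusted p = 0.001253) and by 0.51 (SE 0.0996, limma adjusted p = 0.002361), the latter being -0.77 under quantile normalization.

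Of 6 tested proteases and partners of the lysosome, 2 rose in MC38-LM3a, where 14.1% of all tested genes did, while in MC38-LM3b 6 rose, where 35.6% of all genes did and the median gene was 0.21 higher. Tinagl1, a secreted matricellular protein related to cathepsin B that lacks protease activity, rose by 0.59 (SE 0.0480, limma adjusted p = 1.384e-05) and 0.67 (SE 0.0480, limma adjusted p = 4.079e-06), from 327.35 to 341.33 TPM in MC38-P to 494.34 to 512.06 TPM and 522.26 to 537.69 TPM in the derivatives. Prcp, a lysosomal carboxypeptidase, rose by 0.40 (SE 0.117, limma adjusted p = 0.02679) and 0.53 (SE 0.117, limma adjusted p = 0.004558), and the value in MC38-LM3a missed the threshold without MC38-P replicate 2 or 3 or MC38-LM3a replicate 1, at 0.41, 0.32 and 0.43. In MC38-LM3b the calls of both genes held under other scalings but at smaller values, down to 0.44 for Tinagl1 under median centring and 0.27 for Prcp under the GC and length correction.

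The genes for sorting and control of lysosomal enzymes were all tested, 11 in number. In MC38-LM3a 1 rose and 1 fell, and in MC38-LM3b 4 rose and 1 fell, shares close to those of all tested genes given above. Psap, the precursor of the saposins that activate lysosomal lipid hydrolases, rose by 0.27 (SE 0.0895, limma adjusted p = 0.04628) and 0.61 (SE 0.0895, limma adjusted p = 0.0004607), and the value in MC38-LM3a missed the threshold when any library but MC38-P replicate 1 or MC38-LM3a replicate 2 was left out, at values from 0.17 (without MC38-LM3a replicate 3) to 0.30. In MC38-LM3b the Psap call held under other scalings, at 0.38 under median centring. Tfeb, a transcription factor that drives lysosomal genes, fell by 0.68 (SE 0.127, limma adjusted p = 0.002617) and by 0.56 (SE 0.127, limma adjusted p = 0.00513). Its relatives Tfe3 and Mitf differed from MC38-P by -0.01 (SE 0.0999) and -0.18 (SE 0.142) in MC38-LM3a, and in MC38-LM3b by 0.29 (SE 0.0999) and 0.37 (SE 0.142), where Tfe3 passed the test (limma adjusted p = 0.03395) and Mitf did not (limma adjusted p = 0.05267).

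Of the class II presentation genes, in whose pathway cathepsins S and L trim the invariant chain, 2 of 8 were tested. Ifi30, a thiol reductase of the lysosome, rose by 0.21 (SE 0.0511, limma adjusted p = 0.01211) and 0.26 (SE 0.0511, limma adjusted p = 0.002307), the second value near the median of all genes, and both calls were lost after median centring, at 0.21 and 0.04. The call was also lost in MC38-LM3a with only the 6 libraries of the comparison and in MC38-LM3b under the GC and length correction, at 0.14. Cd74, the invariant chain, and Ciita, the master regulator of the class II genes, did not exceed 0.33 and 0.08 TPM.

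**Figure D3:**
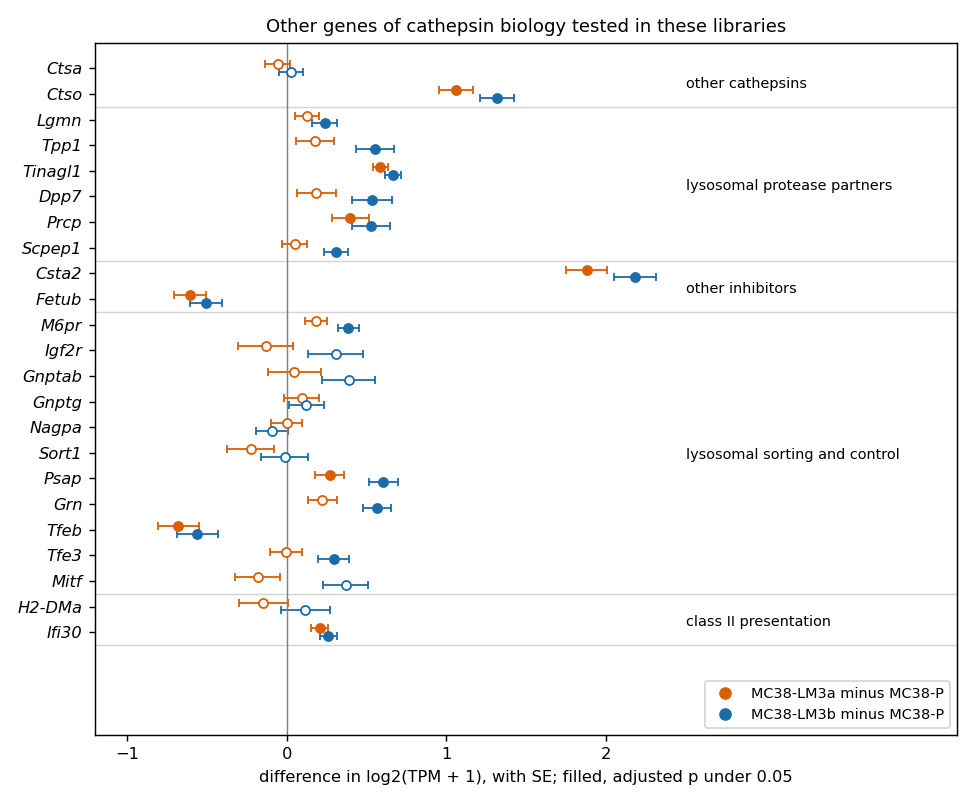
Difference in log2(TPM + 1) from MC38-P (x axis) of the 23 tested pathway genes, grouped by list, with SE bars, where filled points have an adjusted p under 0.05 in limma. Csta2 and Ctso lie farthest to the right in both derivatives, Tfeb and Fetub are on the left, and most other genes lie within 0.7 of 0.

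The genes whose profiles over the 9 libraries were most like that of Ctla2a, by the root mean square difference of centred log2(TPM + 1), were Fcho1 (0.198), Ptpn7 (0.246), Fes (0.263), Arhgap9 (0.278) and Grap (0.342). Ctla2b itself was farther away, at 0.707. The profiles nearest to Ctla2b were those of Csta2 (0.118), Psmb8 (0.175), Casp1 (0.194), Tlr6 (0.206) and Srgn (0.207). Thus a stefin had the nearest profile to Ctla2b among all tested genes outside the members, but none was among the 5 nearest to Ctla2a. The profiles were centred but not scaled, so the measure depends on the size of a change as well as on its pattern. Ctla2b, which rose in the same comparisons at a lower amplitude, is farther from Ctla2a in part for that reason. The pattern mostly separates MC38-P from the derivatives, and the values of the measure are a description.

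Along chromosome 13, the genes next to the Ctla2 locus did not all move with it. In the order of RefSeq on GRCm38.p6, the next listed gene on the Ctla2b side was 4930486L24Rik, at 0.28, 0.54 and 0.54 TPM in MC38-P, 1.65, 2.7 and 2.1 TPM in MC38-LM3a and 3.02, 3.91 and 1.95 TPM in MC38-LM3b. Its log2 difference from MC38-P was 1.11 (SE 0.193) and 1.42 (SE 0.193), given without a test because it passed the filter on low values only through the derivatives. With a pseudocount of 0.1 these differences were 2.04 and 2.46. The best local alignment of its coding transcript with Ctla2b-201 covered 250 bases with 76.4% identity, compared with 232 bases and 70.3% for Ctsl. Beyond it, Dapk1 was at no more than 0.02 TPM, and Gas1 fell by 1.08 (SE 0.117, limma adjusted p = 9.191e-05) and by 0.72 (SE 0.117, limma adjusted p = 0.0008415). Farther out on this side, Tut7 and Isca1 differed by 0.31 (SE 0.147) and 0.03 (SE 0.0910) in MC38-LM3a and did not pass the test, and in MC38-LM3b Tut7 rose by 0.75 (limma adjusted p = 0.002261) and Isca1 differed by 0.14.

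On the other side of the locus, Ctsm, Gm20599 and Gm9595 did not reach 1 TPM in any library. The tested genes farther out, Gm3325 and Zfp808, differed by 0.08 (SE 0.166) and 0.14 (SE 0.210) in MC38-LM3a and did not pass the test, and in MC38-LM3b they rose by 0.60 and 0.56 (limma adjusted p = 0.01371 and 0.04875). Around Ctsl, Slc35d2 rose by 0.89 (SE 0.127, limma adjusted p = 0.0005572) and 1.04 (SE 0.127, limma adjusted p = 0.000144), and of the genes directly beside Ctsl, Prxl2c and Cdk20, neither passed the test in MC38-LM3a, at 0.25 (SE 0.104) and -0.05 (SE 0.110). In MC38-LM3b Prxl2c rose by 0.46, Habp4 by 0.42 and Mfsd14b by 0.53 (limma adjusted p = 0.00504, 0.005505 and 0.003273), and Cdk20 differed by 0.12. Habp4 and Mfsd14b did not pass the test in MC38-LM3a, at 0.27 and 0.21. Zfp367, Cdc14b and Gm3785 differed by -0.27, -0.12 and -0.01 in MC38-LM3a and by 0.03, 0.37 and -0.23 in MC38-LM3b. They did not pass the test in either comparison. Prss47 and Nlrp4f did not exceed 0.13 and 0.03 TPM. Over the 468 tested genes of chromosome 13 the median difference was 0.01 and 0.18, close to that of all genes.

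**Figure D4:**
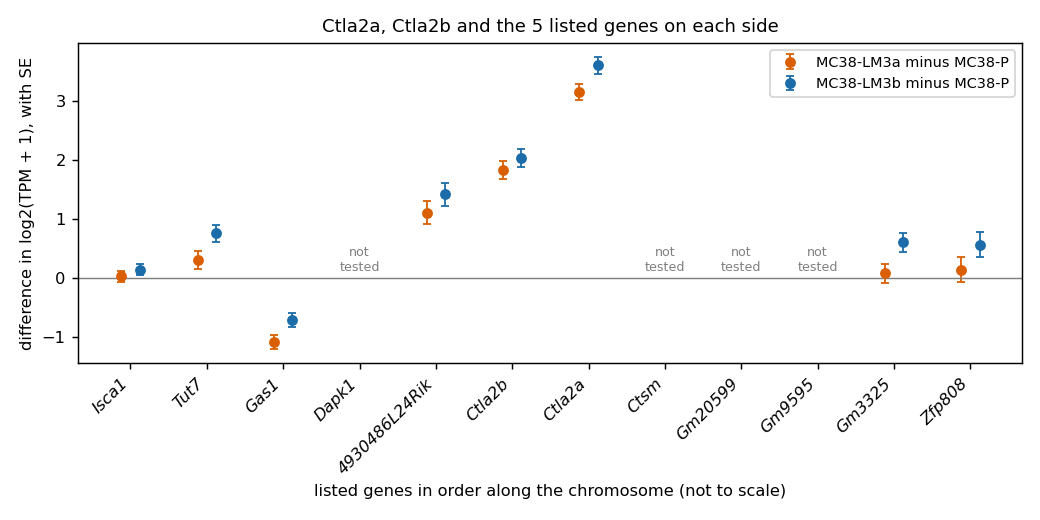
Difference in log2(TPM + 1) from MC38-P (y axis, SE bars) of Ctla2a, Ctla2b and the 5 listed genes on each side, in their order along chromosome 13 and not to scale. Ctla2a, Ctla2b and the adjoining 4930486L24Rik are above 1 in both derivatives, Gas1 is below 0, and genes without points were not tested.

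Each library sums to 1000000 TPM and 10875 to 11218 genes reached 1 TPM in it, but no counts are given, which leaves the depth unknown. Since Ctla2, Ctss and Ctsc are also genes of leukocytes, markers of other cells were examined, with the limit that in bulk RNA fewer cells of a type and less RNA per cell cannot be told apart. Of 18 macrophage and Kupffer cell markers 9 are listed, and only Cd14 and Cd68 reached 1 TPM. Their list summed to 38.9 to 40.2 TPM for MC38-P, 48.9 to 54.1 TPM for MC38-LM3a and 55.7 to 60.4 TPM for MC38-LM3b, while the defining markers Ptprc, Csf1r and Lyz2 stayed at or below 0.09, 0.14 and 0.28 TPM. Of the T cell and NK cell list 2 of 10 genes are listed (0 to 0.3 TPM in sum), and of the mast cell and basophil list 1 of 6 (0.61 to 0.78 TPM in MC38-P, 0.08 to 0.33 TPM in the derivatives). Hepatocyte markers, 6 of 8 listed, summed to at most 0.89 TPM and endothelial markers, 6 of 8 listed, to at most 2.07 TPM. Stellate cell and fibroblast markers, 7 of 8 listed, were highest in MC38-P, at 135 to 172 TPM against 54.1 to 72.7 TPM and 65.4 to 72.3 TPM. That sum is nearly all Col3a1 and Col1a1, and Pdgfrb went the other way, at 1.15 to 1.74 TPM in MC38-P, an overlapping 1.69 to 2.42 TPM in MC38-LM3a and 3.48 to 3.8 TPM in MC38-LM3b. Of the markers of the labelled epithelial type, all 10 are listed, and their sum was 2004 to 2319 TPM for MC38-P, 1592 to 1812 TPM for MC38-LM3a and 1585 to 1629 TPM for MC38-LM3b, nearly all from Krt8, Krt18 and Krt19, of which Krt19 was higher in MC38-LM3a (135.74 to 156.89 TPM) than in MC38-P (105.08 to 121.84 TPM). Epcam was at 4.93 to 6.31 TPM in MC38-P, 1.93 to 2.17 TPM in MC38-LM3a and 1.87 to 2.4 TPM in MC38-LM3b. Cdx2 was likewise lower in the derivatives, at 1.8 to 2.86, 0.48 to 0.92 and 0.28 to 0.56 TPM. Krt20 was at 0.54 to 0.79 TPM in MC38-P, a higher 1.21 to 1.83 TPM in MC38-LM3a and an overlapping 0.69 to 1.64 TPM in MC38-LM3b. Cdh1, Vil1, Cldn4 and Cldn7 did not reach 1 TPM. The part of these marker sums in the results was not tested.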

How the data were processed

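Gene expression of 3 cultures of each line was analysed from the TPM values that the authors deposited, rounded to 2 decimals and with 1 file per library. The submitters' processing notes name HISAT and GRCm39. The quantification tool is not given in the sources used here. The study tested its genes with a count model, which TPM do not allow. Values were instead converted to log2(TPM + 1) and tested with limma 3.58.1 in R 4.3.3, with the study's thresholds (adjusted p under 0.05, absolute log2 fold change above 1). One model with a mean per group and a trended variance was fitted to all 9 libraries over the 11287 genes that reached 1 TPM in 3 or more of them. P-values were adjusted by Benjamini and Hochberg's method over all of these genes. The procedure was tested on simulated data.

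The members and gene lists were chosen with earlier results of these data known. All members are named. From the lists, genes past the adjusted p in both comparisons against MC38-P are named, up to 4 per list, besides the 5 most similar profiles to each Ctla2 gene and the 5 listed neighbours on each side of a locus. Ctsa, Tfe3, Mitf and the low genes were named after their values were seen. Transcripts came from GENCODE M21, and promoters and gene order from RefSeq on GRCm38.p6, whose coordinates are not those of the authors' build. Sequences were aligned with Biopython 1.88. The proteins were not analysed here.

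The alternatives were a pseudocount of 0.1, no filter, quantile normalization, median centring, a correction for GC content and median transcript length (loess, span 0.3), a replicate block, each library left out, the 6 libraries of a comparison alone, and summed Ctla2 values. The same correction with the longest transcript was added after seeing the data.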

Additional observations from a re-analysis of the deposited data

How the results depend on the processing

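The differences of Ctla2a and Ctla2b from MC38-P, for which the genes were chosen, are described under the alternatives without support being drawn from them. With a pseudocount of 0.1 they were 4.06 and 4.53 for Ctla2a and 2.29 and 2.52 for Ctla2b. Without 1 library at a time they ran from 3.03 to 3.24 and 3.47 to 3.69 for Ctla2a, and from 1.66 to 1.99 and 1.99 to 2.07 for Ctla2b, in MC38-LM3a and MC38-LM3b. The small differences of Ctsl, Ctsb, Ctsd and Ctsz in MC38-LM3b depended on the scaling. Median centring took their calls away, at -0.019, 0.031, 0.20 and 0.17. The GC and length correction with the median transcript took away those of Ctsl, Ctsb and Ctsz, at 0.053, 0.096 and 0.26. It left Ctsd called at 0.22. With the longest transcript Ctsd and Ctsz were called at 0.32 and 0.37, and Ctsl and Ctsb were not, at -0.064 and 0.028. Quantile normalization left the differences at 0.23, 0.24, 0.40 and 0.35 with their calls. Depth is unknown, so the error of low values such as Ctss cannot be given.

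The number of members past an adjusted p of 0.05 in MC38-LM3b against MC38-P was 7, but 3 under median centring and 4 under the GC and length correction with the median transcript (6 with the longest), and 7 under quantile normalization. In MC38-LM3a, 8 pathway genes passed, and 5 with only the 6 libraries of the comparison, where the share of all genes called went from 28% to 18.9%. Quantile normalization or the correction with the longest transcript gave 12 there, and the correction with the median length 11. For MC38-LM3b, 15 passed, with 10 under the latter correction and 12 under median centring. Between the derivatives, leaving out 1 library gave 0 to 5 members and 0 to 13 pathway genes, the highest without MC38-LM3a replicate 3.

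Signs turned as follows. Under median centring, Ctsl and Cst3 in MC38-LM3b against MC38-P came to -0.019 and -0.030, and between the derivatives Ctla2b came to -0.011, Ctsl to -0.12, Ctsb to -0.10, Ctsd to -0.084 and Ctsz to -0.18. Under the GC and length correction with the median transcript, Ctsl, Ctsb, Ctsd and Ctsz came to -0.022, -0.021, -0.064 and -0.12 between the derivatives. With the longest transcript Ctsl and Ctsb came to -0.21 and -0.13 there, and Ctsl to -0.064 in MC38-LM3b against MC38-P. Under quantile normalization Ctla2b came to -0.059 between the derivatives, and Cstb in MC38-LM3b against MC38-P to 0.0066. Without 1 library at a time this Cstb difference ran from -0.075 to 0.015, and it was positive without MC38-P replicate 3 or MC38-LM3b replicate 1. The cause was not tested.

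The labels number the replicates and do not say whether cultures of the same number were paired. Deviations of same-numbered libraries correlated with r from -0.662 to 0.0748. These values cannot decide the question, because the libraries also differed along transcript length. With the replicate block, Ctla2a differed from MC38-P by 3.15 and 3.60, and the calls of Cst3, Prcp and Psap in MC38-LM3a were lost at unchanged values of 0.32, 0.40 and 0.27, the latter pair with limma adjusted p = 0.07872 and 0.1096.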
